A study of Drosophila melanogaster with 55 samples.

Results

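The report describes H3K9me3 peaks in Drosophila melanogaster embryos that carry GFP-tagged SetDB1 with the F578A substitution, set against embryos that carry the tagged wild-type protein. The members were all peaks on all chromosomes and scaffolds in the 4 deposited H3K9me3 peak lists of these genotypes, with 2 libraries in each group. They numbered 13495 of the 117981 peaks in the 29 peak lists of the series. The F578A libraries held 3347 and 3168 peaks, and the WT libraries held 3511 and 3469.

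The series profiled H3K9me3, H3K9me2, H3K14ac and SetDB1 by chromatin immunoprecipitation and sequencing (ChIP-seq) in early embryos, and asked, by its title, how SetDB1 is recruited when constitutive heterochromatin is set up. The mutant group is labelled GFP-SetDB1 F578A/CyO and its control GFP-SetDB1 WT/CyO, so that both groups carry the CyO balancer, a rearranged second chromosome. The labels give whole embryos as the tissue, and give neither a stage for these 4 libraries nor the state of the endogenous egg gene nor the promoter of the tagged protein. They do not say whether the replicates came from separate collections, so the p-values measure the spread between these libraries, which may be technical. The labels of the knockdown embryos used below do give a stage. Stage may therefore differ between the knockdown embryos and these 4 libraries.

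SetDB1, called Eggless in the fly, transfers methyl groups to lysine 9 of histone H3. H3K9me3 is bound by HP1 and marks constitutive heterochromatin, the repeat-rich chromatin around centromeres, along the Y and over much of chromosome 4. In fly embryos this chromatin is built anew in the early nuclear cycles, and the mark spreads from nucleation sites over transposons and satellite repeats.

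Depth differed between the groups and moves with each count and length below. After duplicate removal the F578A libraries held 1.46 M and 1.43 M fragments and the WT libraries 2.63 M and 2.47 M. Their inputs held 4.93 M and 4.59 M fragments against 5.70 M and 5.18 M. The lowest pileup, the fragment coverage of a peak, was 6.14 and 6.28 per M fragments in F578A and 4.93 and 4.86 per M fragments in WT, so that weak peaks could be listed in WT that could not be listed in F578A. Values with a common minimum of 7 per M fragments, chosen after these depths were seen, therefore stand beside the counts. In the other replicated H3K9me3 libraries of the series the shallower group covered more. The Gcn5 knockdown libraries, with 1.64 M and 2.17 M fragments, covered 10.04 and 11.7 Mb. The w knockdown controls, with 2.41 M and 2.56 M, covered 8.25 and 8.02 Mb. Those groups differ in the gene knocked down as well as in depth, and their inputs were deeper than those of F578A and WT. They therefore do not show how depth alone moves cover, and the part of depth in the F578A difference was not tested.

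H3K9me3 peaks covered less of the genome in F578A than in WT. The peaks spanned 6.60 and 5.99 Mb in the F578A libraries and 9.81 and 10.1 Mb in the WT libraries. The groups did not overlap, and the means of 6.30 ± 0.430 Mb and 9.94 ± 0.185 Mb (SD, n = 2) differed by a log2 ratio of -0.66. The exact two-sided permutation test gave p = 0.333, the smallest value that 2 libraries against 2 allow. Peaks were shorter, with a median length of 1105 and 1054 bp in F578A and 1554 and 1590 bp in WT. The number of peaks differed less, by a log2 ratio of -0.10. Fold enrichment, the pileup of a peak over its local input background as written by the authors' peak caller, had a median over peaks of 2.92 and 2.97 in F578A and 2.63 and 2.53 in WT. For length, number and fold enrichment the groups did not overlap, and p was again 0.333 for number and fold enrichment. The higher fold enrichment goes along with the higher lowest pileup of the F578A lists. With the common minimum pileup its median was 3.04 and 3.09 in F578A and 2.97 and 2.83 in WT. Short peaks were not particular to F578A in the series. The median H3K9me3 peak length was 1049 and 1081 bp in the w knockdown libraries, whose depth was near that of WT. In the Gcn5 knockdown libraries it was 1098 and 1141.5 bp.

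The narrowing was found in each class of chromosome. Pericentromeric heterochromatin, set here by round boundaries on 5 arms, was covered over 3.74 and 3.44 Mb in F578A and 5.501 and 5.890 Mb in WT. The F578A mean was 63.0% of the WT mean there, 60.8% on the Y, 56.1% on chromosome 4, 53.6% on the chromosome arms and 78.2% on unplaced scaffolds. In none of these 5 classes did the covered lengths of the groups overlap. The share of covered length that lay in heterochromatin (pericentromeric, chromosome 4 and Y) was 63.2% and 63.6% in F578A and 63.2% and 64.9% in WT, and these ranges overlapped (exact permutation test, p = 1). The direction of this share depended on the peaks counted. On placed chromosomes alone it was higher in F578A, at 78.0% and 79.8% against 75.1% and 77.0%. It was lower in F578A at a -log10 q of at least 5, at 56.7% and 56.3% against 63.3% and 60.8%, and with the common minimum pileup, at 63.4% in each F578A library against 66.6% and 66.3%.

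**Figure D1:**
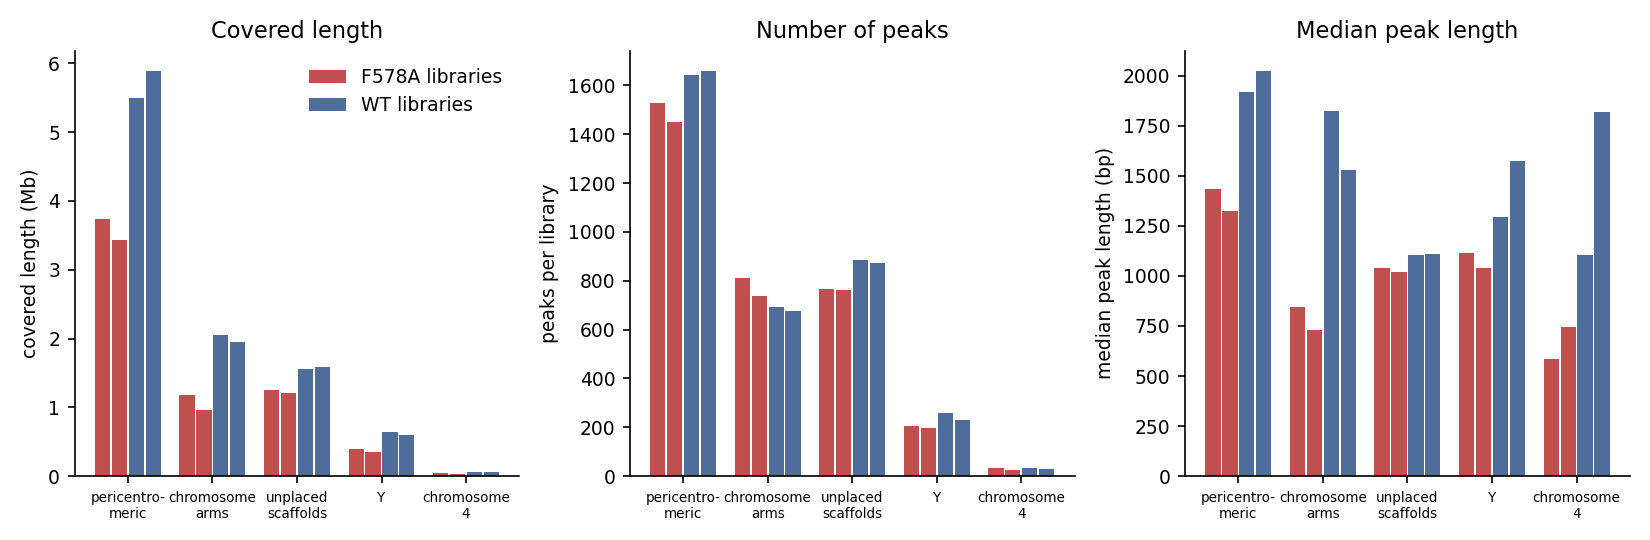
Covered length in Mb, number of peaks and median peak length in bp for 5 classes of chromosome, with 1 bar per library and the F578A libraries left of the WT libraries in each class. Covered length was lower in both F578A libraries in each class, while the arms held more peaks in F578A (813 and 738 against 692 and 676).

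The chromosome arms combined more peaks with shorter ones. F578A libraries had 813 and 738 peaks on the arms and WT libraries 692 and 676, while the median arm peak was 846 and 731 bp long in F578A and 1822 and 1528 bp in WT. Many short arm peaks were also found in the knockdown embryos. The w knockdown libraries had 937 and 883 arm peaks with medians of 714 and 769 bp. The Gcn5 knockdown libraries had 1083 and 1206, with medians of 784 and 909.5 bp. The X arm held the largest excess of the 5 arms, with 247 and 241 peaks in F578A against 189 and 188 in WT, and its covered length was still 58.6% of that in WT. On pericentromeric X the number of peaks overlapped between the groups, at 84 and 83 against 85 and 80, and the covered length was 74.1% of WT, the highest of the 5 pericentromeric ends.

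Cover fell off from the centromere outward in both genotypes, and the F578A libraries lay lower on both sides of the boundary. Over the 5 arms, the outermost 1 Mb of pericentromeric heterochromatin was covered to 15.3% and 14.3% in F578A and 21.3% and 22.6% in WT. The last 1 Mb of the arm before the boundary was covered to 4.503% and 4.266% in F578A and 7.56% and 7.80% in WT. Between 3 and 2 Mb out on the arm, cover was 0.785% and 0.671% against 1.20% and 1.19%. The groups did not overlap in any of these windows.

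**Figure D2:**
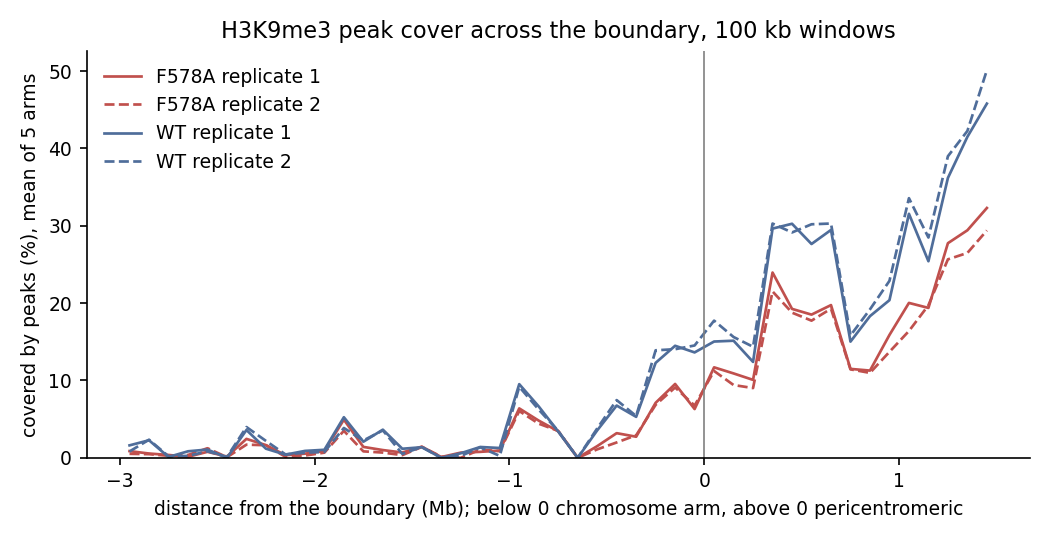
Share of each 100 kb window covered by H3K9me3 peaks, as the mean of 5 arms in percent, against the distance in Mb from the boundary of pericentromeric heterochromatin, with 1 line per library. In the outermost 1 Mb of heterochromatin the F578A lines averaged 15.3% and 14.3% and the WT lines 21.3% and 22.6%.

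With a common minimum pileup of 7 per M fragments the covered length still separated the groups and the number of peaks turned. The minimum dropped whole peaks and left the ends of the others as called at the depth of each library. It therefore evens out neither length nor cover, and both still move with depth. The peaks that passed covered 6.16 and 5.67 Mb in F578A and 7.25 and 7.48 Mb in WT, a log2 ratio of -0.32. They numbered 2828 and 2762 in F578A and 2094 and 2075 in WT, a log2 ratio of 0.42. With this minimum the F578A mean of covered length was 77.5% of the WT mean in pericentromeric heterochromatin, 69.7% on the Y and 66.5% on chromosome 4. On the arms it was 91.0% of WT and the groups overlapped, with 1.03 and 0.873 Mb against 1.01 and 1.08 Mb. The median length of these peaks stayed lower in F578A, at 1740 and 1590 bp against 3524.5 and 3770 bp in pericentromeric heterochromatin. Before the minimum these medians were 1434 and 1324.5 bp against 1917 and 2024 bp.

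Most H3K9me3 regions of WT embryos still carried a peak in F578A. There were 2781 regions found in both WT libraries. F578A peaks were present in both libraries at 71.4% of them (95% Wilson interval 69.7 to 73.1%) and in neither at 414, or 14.9%. In the other direction 88.9% (87.6 to 90.1%) of 2446 F578A regions had a peak in both WT libraries and 121, or 4.95%, in neither. These intervals cover counting error only. The order of the 2 shares turned with the common minimum pileup, at 85.8% of WT regions and 75.1% of F578A regions. A comparison of the 2 directions therefore cannot be told apart from depth.

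Long regions were kept more often than short ones. An overlap of 1 base counted, so that a long region had more room to be hit, and the part of this rule was not tested. With at least 50% of a region covered, 48.0% of 2375 regions of all lengths were kept, and this was not split by length. The share with a peak in both F578A libraries was 46.8% for WT regions under 1 kb, 58.1% from 1 to 2 kb, 76.6% from 2 to 5 kb and 95.8% over 5 kb. It also rose with strength, from 52.2% in the lowest quartile of WT regions by fold enrichment to 90.5% in the highest. By class the share ran from 63.4% on the Y (194 regions) to 73.9% on unplaced scaffolds (763 regions), with the interval on the Y (56.4 to 69.9%) below that on unplaced scaffolds (70.7 to 76.9%). The other 3 classes had intervals that overlapped both.

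Regions bound by SetDB1 in the WT libraries were kept less often than unbound regions of like length, and this held in part when other libraries defined the bound regions. With a GFP-SetDB1 peak in both WT libraries, 43.0% (33.7 to 52.8%) of regions from 1 to 2 kb and 60.4% (53.4 to 67.1%) of regions from 2 to 5 kb were kept. With no GFP-SetDB1 peak in either WT library the shares were 61.2% (56.8 to 65.4%) and 80.2% (77.0 to 83.0%). With the common minimum pileup the same shares were 62.9% and 81.1% for bound regions, and 81.8% and 92.4% for unbound ones. The H3K9me3 and GFP-SetDB1 peaks of a WT replicate were called against inputs with the same number of fragments, so they share a background. The w knockdown embryos are labelled stage 5, and the F578A and WT libraries carry no stage label. The part of stage in the next split was not tested. When the regions were split by the GFP-SetDB1 peaks of the w knockdown embryos, called against other inputs, the gap was seen from 2 to 5 kb, at 65.6% (53.0 to 76.3%) for 61 bound regions against 78.9% (76.0 to 81.6%), with intervals that just overlapped. From 1 to 2 kb it was not, at 60.0% of 35 bound regions against 58.7%, and under 1 kb the order was reversed, at 60.0% (40.7 to 76.6%) of 25 bound regions against 47.0% (42.6 to 51.5%), with overlapping intervals. Over all lengths bound regions were then kept in 75.0% and unbound ones in 71.1%, with overlapping intervals.

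**Figure D3:**
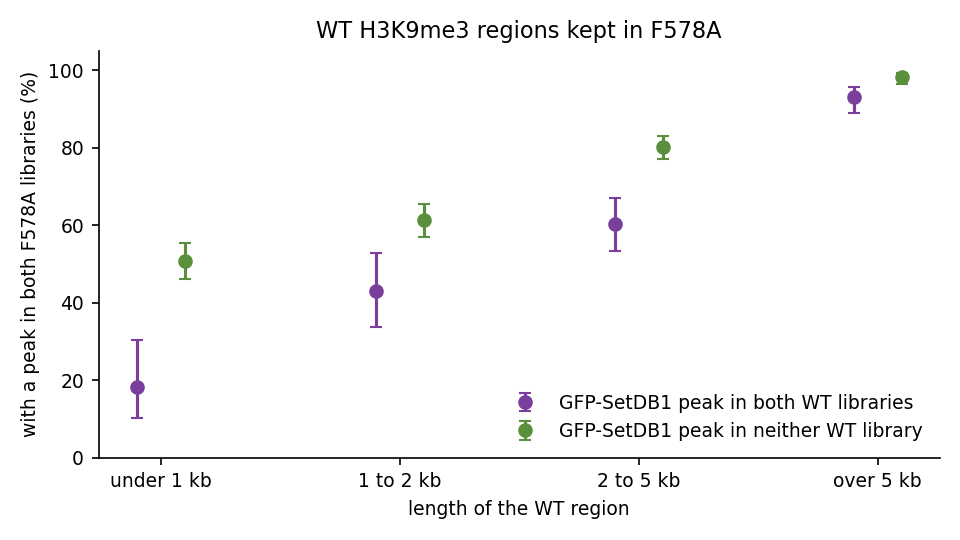
Share of WT H3K9me3 regions with a peak in both F578A libraries, in percent with 95% Wilson intervals, by the length of the region and by GFP-SetDB1 peaks in the WT libraries. Bound regions lay lower in each length band, from 18.2% against 50.8% under 1 kb to 93.1% against 98.3% over 5 kb.

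The regions without an F578A peak were short and were less often marked in other embryos. The 414 regions had a median length of 1155.5 bp, and the 1987 regions kept in both F578A libraries had 3327 bp. Their median WT fold enrichment was 2.43 and 2.78. The sets were not matched for length or strength, so the shares below cannot be told apart from these differences. In embryos of the w1118 strain 49.0% of the 414 regions had an H3K9me3 peak at stage 4, 37.2% at stage 5 and 76.8% at stage 6, with 1 library per stage. For the kept regions these shares were 90.2%, 87.7% and 95.2%. H3K9me2, the dimethylated form, was found at 77.8%, 65.9% and 81.2% of the regions lacking in F578A and at 90.7%, 89.8% and 90.9% of the kept ones. H3K14ac was rare in both sets, at 3.14%, 7.005% and 8.21% of the lacking regions and 5.89%, 7.15% and 12.0% of the kept ones. Both w knockdown libraries had H3K9me3 at 39.4% of the lacking regions, and both Gcn5 knockdown libraries at 64.7%.

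The 121 regions with a peak in both F578A libraries and neither WT library were shorter still, with a median of 681 bp. The arms held 78 of them and the X arm alone 37, which was 22.7% (16.9 to 29.7%) of the 163 F578A regions there. On the other 4 arms this share ran from 6.32% to 15.6%, and in pericentromeric heterochromatin it was 1.55%. H3K9me3 was found at 38.0%, 33.1% and 46.3% of them at stages 4, 5 and 6 in w1118, at 57.0% in both w knockdown libraries and at 44.6% in both Gcn5 knockdown libraries. Against the 414 regions without an F578A peak, these shares were lower in w1118 and Gcn5 knockdown embryos and higher in w knockdown embryos. The 2 sets were not matched for length.

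The strongest WT regions without an F578A peak included sites of SetDB1 binding. H3K9me3 and GFP-SetDB1 of a replicate had inputs with the same number of fragments, so their fold enrichments share a background and are not independent. At chr3R:31416356-31417503 (dm6), inside Gprk2, which encodes a G protein-coupled receptor kinase, fold enrichment was 4.09 and 3.22 in WT. GFP-SetDB1 had peaks there of 3.27 and 2.71 in WT and a peak of 1.83 in the second F578A library alone. At chrX:8294473-8295582, inside nAChRalpha3, a nicotinic acetylcholine receptor subunit, H3K9me3 was 2.74 and 3.43 in WT, and GFP-SetDB1 was 3.75 and 3.99 in WT against 1.35 and 1.597 in F578A. This region had H3K14ac peaks at stages 4, 5 and 6 in w1118 and no H3K9me3 peak there at any of these stages. The other 3 lay between genes, at chr2L:16141225-16142741 and at chr3L:24817318-24818509 and chr3L:23082207-23083284 in pericentromeric chromatin, with WT fold enrichment from 3.04 to 3.80. The first and second of these had GFP-SetDB1 peaks in both WT libraries, and the last had none in any of the 4 libraries.

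The strongest F578A region without a WT peak lay over a gene with a higher SetDB1 fold enrichment in the mutant. At chr3R:13965061-13966962, over Orc2, a subunit of the origin recognition complex, H3K9me3 fold enrichment was 3.32 and 5.06 in F578A. GFP-SetDB1 was 2.73 and 3.40 there in F578A and 1.78 and 2.49 in WT. As above, the fold enrichments of H3K9me3 and GFP-SetDB1 share a background, so they are not independent here or at the next regions. No H3K9me3 peak was listed at this site in the w knockdown, Gcn5 knockdown or w1118 libraries. A pair of regions on the Y, chrY:3006793-3007919 and chrY:2103766-2104881, had H3K9me3 from 3.00 to 4.20 in F578A and GFP-SetDB1 peaks in both F578A libraries. Each had a GFP-SetDB1 peak in 1 WT library. The other 2 lay on the X, inside CG42346 at chrX:22880834-22882008 and near the tip at chrX:12346-15142, and had no GFP-SetDB1 peak in any of the 4 libraries.

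In regions shared by all 4 libraries the mark was called over less of the region in F578A. Of 4238 regions in the union of the lists, 1970 had a peak in each library. F578A peaks covered 63.6% and 58.2% of the summed length of these regions, and WT peaks 88.2% and 89.7%. The regions were split into more than 1 peak in 387 and 373 cases in F578A and 197 and 148 in WT. The gap was widest on the arms, with a cover of 52.0% and 43.1% against 89.7% and 86.9%, and narrowest on unplaced scaffolds, with 81.5% and 78.7% against 92.7% and 93.4%. A limma fit of log2 covered bases, added after these values were seen, had a median difference of -0.32 and called 99 regions shorter in F578A, 5.03% of those tested, and 1 longer, 0.0508% (Benjamini-Hochberg adjusted p under 0.05). None passed with centred libraries, with a replicate block or without F578A replicate 2, WT replicate 1 or WT replicate 2, while 258 were shorter without F578A replicate 1. With centred libraries the median difference turned to 0.34. Uncorrected p was under 0.05 in 537 regions of the full fit, and in 866, 453, 567, 347 and 321 regions of the fits without a call, in the order given.

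Regions bound by SetDB1 in WT were covered less in F578A than unbound ones. In the 373 shared regions with GFP-SetDB1 peaks in both WT libraries, F578A peaks covered 55.4% and 48.8% of the length and WT peaks 90.7% and 91.8%. In the 1305 with no GFP-SetDB1 peak in any of the 4 libraries of the 2 genotypes the values were 68.8% and 64.2% against 86.2% and 88.2%. Bound regions were longer, with a median of 5.70 kb against 2.80 kb. Among regions over 5 kb the median log2 difference in covered bases was -1.10 for 206 bound and -0.41 for 306 unbound regions. The split by w knockdown GFP-SetDB1 peaks gave -1.17 for 79 bound and -0.48 for 461 unbound regions over 5 kb, and -0.36 for both kinds from 2 to 5 kb. These are descriptions of the regions, with no test between the sets.

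The 5 longest shared regions were covered over most of their length in each library. The longest, chr3L:26083948-26132372, spans 48.4 kb of pericentromeric 3L, and was covered to 88.6% and 86.0% in F578A and 92.5% and 99.9% in WT. Its fold enrichment was 4.48 and 4.28 in F578A and 3.47 and 3.21 in WT. In the other 4, on pericentromeric 3R, 3L and X, F578A cover ran from 79.2% to 99.3% and WT cover from 91.4% to 99.8%. None of the 5 regions overlapped an annotated gene.

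Within shared regions the median fold enrichment was higher in F578A, and the median pileup was higher by less. A region entered only with a peak in each library. The lowest listed pileup was 6.14 and 6.28 per M in F578A and 4.93 and 4.86 in WT. Values were means over called bases, which were 63.6% and 58.2% of the summed length in F578A and 88.2% and 89.7% in WT. Higher values in F578A cannot be told apart from these differences in what was called. A limma fit on log2 fold enrichment called 496 of the 1970 regions higher in F578A, 25.2% of those tested, and 85 lower, 4.31% (Benjamini-Hochberg adjusted p under 0.05), with a median log2 difference of 0.20. The same fit on pileup per M called 274 higher, 13.9%, and 210 lower, 10.7%, with a median of 0.08. With log2 fold enrichment centred on each library's median the calls were 160 higher and 128 lower, so most of the excess of higher calls lay in the shift common to all regions. No region passed in the fit without F578A replicate 1 or without F578A replicate 2, where the lone library is assumed to vary like the other group, and 583 and 644 regions had an uncorrected p under 0.05.

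The 2 measures often disagreed on the same region. Of the 496 regions higher by fold enrichment, 82 were also higher by pileup and 121 were lower. Of the 85 lower by fold enrichment, 12 were also lower by pileup and 13 were higher. The disagreement was widest on unplaced scaffolds, where the median log2 difference was 0.21 by fold enrichment and -0.17 by pileup, with 204 higher and 65 lower by fold enrichment against 54 higher and 172 lower by pileup. There the pileup divided by the fold enrichment, a measure of the local background used by the peak caller, had a median of 4.51 and 4.70 per M in F578A and 6.68 and 6.00 in WT. In pericentromeric heterochromatin it was 2.90 and 2.92 against 3.06 and 3.12. The part of the inputs in the fold enrichment was not tested.

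On the arms and in pericentromeric heterochromatin both measures leaned the same way. On the arms 75 regions were higher and 6 lower by fold enrichment and 89 higher and 4 lower by pileup, of 398. Pericentromeric regions gave 195 higher and 10 lower by fold enrichment and 126 higher and 20 lower by pileup, of 871. Regions called higher by both measures numbered 35 on the arms and 32 in pericentromeric heterochromatin, and regions called lower by both numbered 1 and 0. Over all 1970 shared regions, 25.2% were higher and 4.31% lower by fold enrichment. By pileup these shares were 13.9% and 10.7%, and by both measures 82 regions were higher and 12 lower. With pileup centred on each library's median the totals over all classes were 164 higher and 300 lower, so the lean of pileup to higher calls flips under that scaling.

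**Figure D4:**
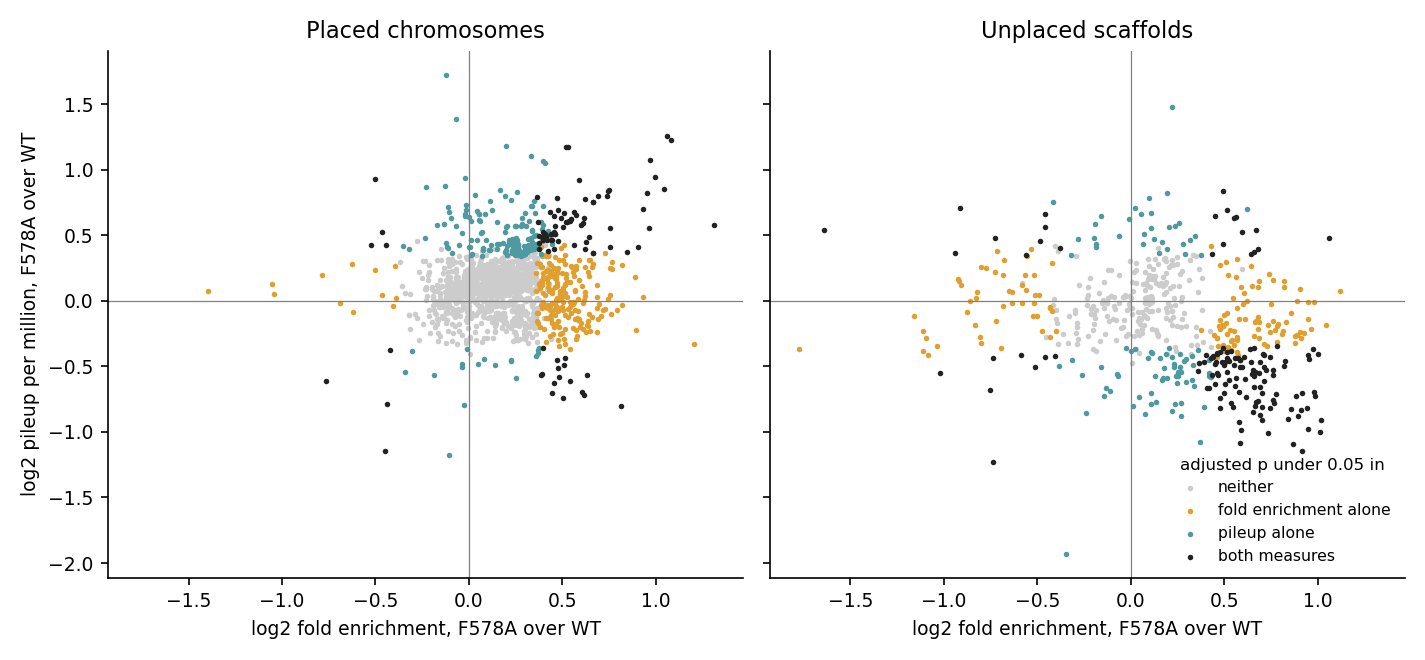
Log2 difference, F578A over WT, in fold enrichment (horizontal) and in pileup per M (vertical) for the 1970 shared regions, on placed chromosomes (left) and unplaced scaffolds (right), coloured by the measure in which the adjusted limma p was under 0.05. On unplaced scaffolds many regions lie at higher fold enrichment and lower pileup (medians 0.21 and -0.17).

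SetDB1-bound regions did not share the general rise in fold enrichment. In WT the fold enrichments of H3K9me3 and GFP-SetDB1 share a background. A lower difference in regions bound in WT was therefore favoured in advance. The 373 shared regions bound in both WT libraries had a median log2 difference of -0.02, with 23 called higher and 51 lower, against 0.26, with 417 higher and 23 lower, in the 1305 unbound regions. By pileup the order turned, with 77 higher and 18 lower at a median of 0.11 in bound regions and 151 higher and 166 lower at 0.06 in unbound ones. The 103 regions bound in both WT and neither F578A library had a median of -0.04 by fold enrichment and 0.10 by pileup, and the 131 regions bound in all 4 libraries had -0.0048 and 0.12. Regions were also split by the w knockdown GFP-SetDB1 peaks, called against other inputs. By fold enrichment the median was then 0.0008 for 154 bound and 0.23 for 1641 unbound regions. By pileup it was 0.09 and 0.08. No test was made between these sets.

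Of the 10 regions with the smallest p in the fold enrichment fit, 5 were lower and 5 higher in F578A. The lowest p belonged to a region of 1704 bp on an unplaced Y scaffold. Its fold enrichment was 3.81 and 3.84 in F578A and 14.4 and 11.8 in WT, the strongest WT value of the 10. The log2 difference was -1.77 (SE 0.14, limma adjusted p = 1.26e-05), and by pileup it was -0.37 and not called. The local background there was 7.70 and 5.90 per M in F578A and 2.50 and 2.59 in WT.

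Among placed regions, chrX:22257803-22260936 in pericentromeric X, 5.39 kb from CG41562, had a fold enrichment of 2.51 and 2.44 in F578A and 6.81 and 6.22 in WT. The log2 difference was -1.40 (SE 0.13, limma adjusted p = 5.29e-05). Its pileup did not separate the groups, at 20.2 and 15.7 per M in F578A and 17.3 and 16.5 in WT. All 4 GFP-SetDB1 libraries had a peak there. At chr3L:25962450-25964641, over l(3)80Fg, fold enrichment was 2.36 and 2.64 against 5.28 and 5.02, and pileup 12.8 and 14.5 against 13.0 and 13.3 per M, with GFP-SetDB1 peaks in the WT libraries alone.

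The polyubiquitin gene Ubi-p63E on the arm of 3L gave the opposite picture. At chr3L:3899276-3901652 fold enrichment was 4.12 and 4.25 in F578A and 1.86 and 1.78 in WT, a log2 difference of 1.20 (SE 0.13, limma adjusted p = 0.000135). Pileup was lower in F578A, at 21.2 and 22.2 against 26.7 and 27.8 per M. The local background was 5.15 and 5.22 per M in F578A and 14.3 and 15.7 in WT, and no GFP-SetDB1 peak was listed there in the 4 libraries.

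Only 2 of the 5 higher regions were also called higher by pileup. At chr3L:24309952-24311514, 10.7 kb from Snap25, fold enrichment was 4.54 and 4.60 in F578A and 2.203 and 2.522 in WT, and pileup 15.1 and 13.9 against 8.02 and 8.30 per M. The local background was alike there, at 3.32 and 3.02 against 3.64 and 3.29 per M. At chr2L:23191213-23192141 fold enrichment was 5.01 and 6.42 against 2.42 and 2.16, and pileup 18.6 and 21.0 against 13.9 and 12.6 per M. The other 4 of the 10 regions lay on unplaced scaffolds. A region of 1067 bp with a lower fold enrichment, 2.11 and 2.02 against 7.66 and 5.41, was called higher by pileup, at 37.1 and 29.6 against 21.8 and 23.9 per M.

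Genes that lie in heterochromatin were covered less in F578A. The lists below were chosen with earlier results of these data known. Of 668 annotated genes with a peak in any of the 4 libraries, 38.2% were covered less in both F578A than in both WT libraries and 13.6% more. Of 20 heterochromatin genes, 14 had a peak, 11 of these were covered less in both F578A libraries and none more. With the common minimum pileup this was 5 less and 3 more of 13, and 114 less and 126 more of 545 over all genes. The lean over all genes thus did not hold with the minimum. That minimum took the WT lists from 3511 and 3469 to 2094 and 2075 peaks. It took the F578A lists from 3347 and 3168 to 2828 and 2762. The part of this in the change was not tested.

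Dbp80, a DEAD-box RNA helicase gene of 143 kb at chr3L:27279316-27422159, was covered to 28.1% and 25.3% in F578A and 39.6% and 38.2% in WT. Ir41a, an ionotropic receptor gene at chr2R:4917519-5021955, was covered to 22.9% and 19.6% against 28.9% and 35.5%. Snap25, which encodes a SNARE of synaptic vesicle fusion and lies at chr3L:24074180-24299205, was covered to 20.4% and 19.0% against 28.8% and 31.8%. In each the groups were apart. The largest gap of these 4 was at Myo81F, an unconventional myosin gene of 1966 kb at chr3R:567076-2532932, with 17.8% and 15.7% in F578A and 29.9% and 34.8% in WT.

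**Figure D5:**
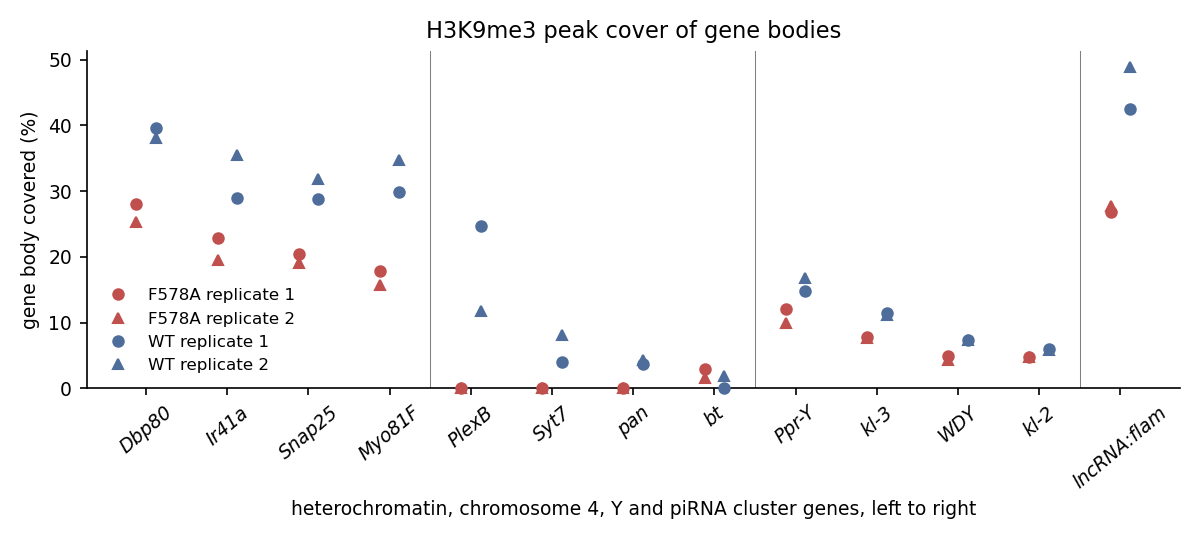
Share of the gene body covered by H3K9me3 peaks, in percent, for the 4 most covered members of 3 gene lists and for flam, with 1 symbol per library. The F578A symbols lie below the WT symbols for each gene except bt, where the groups overlap.

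Chromosome 4 genes had few peaks in either genotype. Of 22 genes 6 had a peak, 3 of these had cover in both WT libraries and none in F578A, and none was covered more in both F578A libraries. Over all genes with a peak, 38.2% were covered less in both F578A libraries and 13.6% more. PlexB, a semaphorin receptor gene at chr4:32478-43778, was covered to 24.8% and 11.8% in WT and had no peak in F578A. GFP-SetDB1 peaks covered 64.1% and 45.2% of this gene in WT and 22.7% and 12.3% in F578A. Syt7, a synaptotagmin gene, had 3.99% and 8.13% in WT, and pan, the TCF factor of Wnt signalling, had 3.65% and 4.31%, each with none in F578A. For bt, which encodes the muscle protein projectin, the groups overlapped at 2.88% and 1.63% in F578A against 0% and 1.88% in WT. With the common minimum pileup 1 of 2 genes with a peak was covered less, against 20.9% over all genes with a peak.

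Genes of the Y were covered less in F578A, in 6 of the 6 with a peak among 10. Over all genes with a peak, 38.2% were covered less in both F578A libraries and 13.6% more. With the common minimum pileup 5 of 6 Y genes were covered less and 1 more. Over all genes these shares were then 20.9% and 23.1%. Ppr-Y was covered to 12.1% and 9.94% in F578A and 14.8% and 16.8% in WT. The axonemal dynein gene kl-3 had 7.74% and 7.68% against 11.51% and 11.12%, WDY had 4.87% and 4.30% against 7.32% and 7.40%, and kl-2, another axonemal dynein gene, had 4.75% and 4.80% against 5.98% and 5.79%. These genes have introns of great length, and their cover was low in both genotypes.

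The flamenco piRNA cluster, which silences transposons in the somatic cells of the ovary, was covered less in F578A. Over chrX:21631891-21790731, in the X arm as bounded here, peaks covered 26.8% and 27.8% in F578A and 42.5% and 48.9% in WT, and the cover stayed lower in both F578A libraries with the common minimum pileup. GFP-SetDB1 peaks covered 3.36% and 9.81% of it in F578A and 10.1% and 10.9% in WT.

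Histone genes and SetDB1 targets known from the fly ovary carried few H3K9me3 peaks. Of 111 replication-dependent histone genes 6 had a peak and 4 were covered less in both F578A libraries, which is uncertain because the copies are near-identical. The share covered less was 38.2% over all genes with a peak. The linker histone copy His1:CG33804 was covered to 25.3% and 2.54% in F578A and fully in WT, at 100% in each library. His1:CG33849 overlapped, at 36.0% and 28.2% against 32.2% and 26.1%. His1:CG33813 had 0% in each F578A library against 31.1% and 26.7%. His1:CG31617 had 27.6% and 0% against 29.3% and 28.8%. Of 3 genes that SetDB1 silences in the ovary, CG34353 had peaks, over 2.18% and 2.16% in F578A and 2.49% and 2.79% in WT, while Phf7 and CG12477 had none in any library. Of 14 euchromatic genes only twi, a mesoderm factor, had a peak, over 2.32% and 1.62% of the annotated gene in F578A and 1.16% and 0.581% in WT.

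The F578A difference in fold enrichment was set against that of Gcn5 knockdown in the 1696 regions with a peak in all 8 libraries of the 2 experiments. Gcn5 is an acetyltransferase that acts on H3K14 among other sites, and its knockdown embryos had w knockdown embryos as controls. Both kinds of knockdown embryo carry the same stage label, and the F578A and WT libraries carry none. Stage may therefore differ between the 2 experiments, and its part in the difference of effects was not tested. The F578A difference lay above the Gcn5 difference in 450 regions, 26.5% of those tested, and below it in 75, 4.42% (limma interaction, Benjamini-Hochberg adjusted p under 0.05). The median log2 difference was 0.22 for F578A over WT and 0.01 for Gcn5 over w knockdown. On unplaced scaffolds the medians were 0.23 and -0.18, and 279 of 514 regions differed. In pericentromeric heterochromatin they were 0.23 and 0.08, and 142 of 782 differed. Centred on each library's median, 271 regions lay above and 171 below.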

How the data were processed

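Peak lists of 4 H3K9me3 ChIP-seq libraries were read as deposited. Reads were processed with Trim Galore 0.6.0, Bowtie2 2.3.5.1 and MACS2 2.2.6 on dm6, per the submitters' processing notes. The F578A and WT libraries number 2 each, with 1.43 M to 2.63 M fragments. Per the file headers, broad peaks were called for each library against its own input, on paired fragments with duplicates removed, at a q-value of 0.1 for broad regions. The deposited pileup is a signal (coverage) value, the fold enrichment is a ratio over the local background made by the authors' peak caller, and the deposited −log10 p-value and q-value are scores of the same caller. Broad calling joins stretches at depth-dependent thresholds, so that length and number move with depth.

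Peaks of 1 group were merged and a region counted as found in a library with an overlap of at least 1 base. Values in merged regions were means over peaks, weighted by overlap. Heterochromatin was bounded at round positions (2L from 22 Mb, 2R to 5.5 Mb, 3L from 23 Mb, 3R to 4.5 Mb, X from 22 Mb). Shared regions were tested with limma 3.58.1 (R 4.3.3) on log2 values without a pseudocount, with Benjamini-Hochberg adjustment at 0.05; the fit was tested on simulated data. Single values per library had exact permutation tests (Python 3.11.15), and shares had 95% Wilson intervals. Gene positions came from the RefSeq annotation of the same assembly.

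The named regions were the 10 of smallest limma p, the 5 of highest fold enrichment and at least 1 kb found in 1 genotype alone on placed chromosomes, and the 5 longest in all 4 libraries; of each gene list the 4 most covered members were named. The members, lists and tests were chosen with earlier results of these data known. Alternatives covered peak thresholds, merging, scaling, pileup in place of fold enrichment, a replicate block and leaving out libraries.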

Additional observations from a re-analysis of the deposited data

Results flagged for a closer look

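The difference between the F578A effect and the Gcn5 knockdown effect on H3K9me3 fold enrichment passed the limma interaction test (Benjamini-Hochberg adjusted p under 0.05) in 525 of 1696 regions. In 424 of these the F578A difference was above 0 and the Gcn5 knockdown difference below 0, and in 63 the signs were the other way round. Picking regions by a large difference of effects favours opposite signs. The share with opposite signs over all 1696 regions was not computed, and the sign of each effect was not tested. With libraries centred on their medians, 271 regions lay above and 171 below.

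Of the 10 regions of smallest p in the F578A comparison, 9 are given here because their 2 effects differed by that test. All 10 were picked for their F578A difference in the same libraries, so that a difference of the effects was favoured in advance. The log2 difference of the effects was -1.75 on the unplaced Y scaffold, -1.44 in pericentromeric X, -0.75 over l(3)80Fg, and -2.18 and -1.68 on the other 2 unplaced scaffolds with a lower value in F578A. Over l(3)80Fg the F578A effect was -0.51 in the regions merged over 8 libraries, against -1.04 in those merged over 4. The difference was 1.34 at Ubi-p63E, 1.00 at chr2L:23191213-23192141, and 1.66 and 1.26 on unplaced scaffolds with a higher value in F578A. The region near Snap25 did not differ by it, with a log2 effect of 0.96 in F578A and 0.82 in Gcn5 knockdown. No group held enough libraries for a test of outlying samples.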

How the results depend on the processing

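Covered length stayed lower in F578A in each of the 8 alternatives, with log2 ratios from -0.73 to -0.32, and the median fold enrichment stayed higher. The log2 ratio of peak number turned to 0.42 with a pileup minimum of 7 per M fragments. The difference in heterochromatin share, near 0, turned to 2.79 percentage points on placed chromosomes alone, was -5.55 at a -log10 q of 5 and -3.02 with the pileup minimum, and ran from -1.48 to 0.242 when a library was left out, with the turn without WT replicate 2. The share of WT regions kept was 48.0% when F578A peaks had to cover at least 50% of a region, 67.6% at a -log10 q of 5 and 85.8% with the pileup minimum, and ran from 60.3% to 79.6% when a library was left out. The share of F578A regions found in WT was 85.1%, 87.4% and 75.1% under the same settings, 83.3% with equal numbers of peaks, and 80.4% to 92.1% when a library was left out. Against 581 fold enrichment calls in 1970 regions there were 288 with centred libraries (160 of the 496 higher and 85 of the 85 lower calls recurred), 352 of 614 regions at a -log10 q of 5, 292 of 536 with at least 80% of a region covered, and 0 to 400 when a library was left out (limma; 583 to 716 regions at an unadjusted p under 0.05). The 100 covered length calls became 0 with centred libraries and 0 with a replicate block, and 0 to 260 when a library was left out (limma; 321 to 866 regions at an unadjusted p under 0.05). Genes covered less in both F578A libraries fell from 255 to 114 with the pileup minimum.

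By pileup in place of fold enrichment, 9 values of the 10 named regions turned in sign. They were 0.077 in pericentromeric X, 0.054 over l(3)80Fg, -0.33 (centred, -0.43) at Ubi-p63E, and 0.54 (0.44), -0.18 (-0.28) and a centred -0.028 on unplaced scaffolds. The cause was not tested.

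Libraries with the same replicate number did not deviate together (correlation 0.0707), so the numbers were not treated as pairs; a replicate block gave 690 fold enrichment calls, the crossed pairing 465, and the block 530 calls of a difference from the Gcn5 knockdown effect. With 2 libraries in a group no single value could reach an exact p below 0.333, and the F578A depth of at most 1.46 M fragments limits what weak peaks could be listed.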
